A study of Mus musculus with 12 samples.

Results

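The ERK pathway output genes are 10 mouse genes whose transcripts follow the activity of the RAS-RAF-MEK-ERK kinase cascade. They were taken from a list of feedback and output genes, matched by symbol to the Ensembl identifiers of the deposited count tables. All 10 of 10 were found, among 55335 identifiers in each table. When ERK is active it enters the nucleus and phosphorylates transcription factors, and some of the genes this switches on encode proteins that damp the cascade again. Sprouty and Spred proteins act upstream, on the receptors, RAS or RAF, and dual-specificity phosphatases remove phosphate from the MAP kinases themselves. CT26 is a mouse colorectal carcinoma line.

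The study sequenced RNA from 12 libraries in 4 groups of 3. Tumors were CT26 cells grown under the skin of mice and given midostaurin, a multikinase inhibitor, at 40 mg/kg from day 7 after inoculation for 2 weeks, or the vehicle (the control tumors). Cultured CT26 cells, labelled wild type, received 1 µM midostaurin for 48 h or the solvent DMSO. The labels give no strain or age of the mice. Nor do they say if a group's 3 libraries stem from different animals or cultures, so a p-value here covers only library-to-library spread, which may be technical. CT26 is a single line, and a tumor library also holds RNA of host cells. The tumor columns given midostaurin are numbered 2, 3 and 4, while the labels number these tumors 1 to 3, so they are called here by their column numbers.

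Total counts per library ran between 33399701 and 48109497 in tumors and between 34787389 and 38144039 in cells. Levels below are CPM (counts scaled to library size) scaled over all 12 libraries. Of 10 markers of colon epithelium, Epcam, Krt19, Cdx1 and Cldn7 were at 0 in all 6 cell libraries. Others were present there: Krt18 averaged 26.0 CPM in midostaurin cells and 25.8 CPM in DMSO cells, and Krt20 38.1 CPM in both. The list's sum was 40.6 to 81.9 CPM in midostaurin cells and 38.9 to 81.6 CPM in DMSO cells. Krt20, a keratin of differentiated intestinal epithelium, made up most of that list's sum in tumors, at 536.5 ± 131.9 CPM with midostaurin and 259.3 ± 106.5 CPM in controls (SD, n = 3 each). A test was called where the Benjamini-Hochberg adjusted p of edgeR's quasi-likelihood test, adjusted over all genes tested, was below 0.05.

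The members fall into 4 roles. The feedback inhibitors are Spry1 (chr3:37639947-37644598, plus strand), Spry2 (chr14:105891947-105896819, minus strand), Spry4 (chr18:38586247-38601415, minus strand) and Spred1 (chr2:117121374-117182279, plus strand), in the coordinates of mm10. The phosphatases are Dusp4 (chr8:34807297-34819894, plus strand), which sits in the nucleus, and Dusp6 (chr10:99263231-99267489, plus strand), which acts on ERK in the cytoplasm. Etv4 (chr11:101769742-101785371, minus strand) and Etv5 (chr16:22381309-22439719, minus strand) encode ETS transcription factors of the PEA3 family. The remaining pair is Fosl1 (chr19:5447547-5455946, plus strand), which encodes the AP-1 subunit FRA-1, and Phlda1 (chr10:111506286-111508645, plus strand), which encodes a pleckstrin-homology-like domain protein.

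Counts were 0 to 97 for Spry1 and between 759 and 12138 per library for the other 9 genes. Exons of Fosl1 overlap those of Ccdc85b on the opposite strand, which had 1678 to 3795 counts. The strand setting of the counting is not given in the sources used here, so reads of that overlap cannot be told apart. The overlap of Phlda1 with the antisense transcript Gm28592 carried at most 22 counts.

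Promoter windows from RefSeq (GRCm38.p6, 250 bases before to 50 bases after a gene's start) were at hand for 5 of the 10 members, 6 windows in all. The following windows belong to Spry2 and to Etv5 (the upstream window of its 2), shown because their levels lay on opposite sides of the split between cell libraries described below. Capitals mark the ETS motif CCGGAA or its reverse complement, with its first base 34 bases after the start.
Spry2, chr14:105896770-105897069, minus strand: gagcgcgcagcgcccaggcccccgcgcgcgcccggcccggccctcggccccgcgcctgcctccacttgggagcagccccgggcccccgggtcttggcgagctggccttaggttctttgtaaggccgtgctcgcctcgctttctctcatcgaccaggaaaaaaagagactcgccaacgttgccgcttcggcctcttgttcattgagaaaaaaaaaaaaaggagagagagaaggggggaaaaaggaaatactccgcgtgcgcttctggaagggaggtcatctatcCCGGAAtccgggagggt
Etv5, chr16:22439521-22439820, minus strand: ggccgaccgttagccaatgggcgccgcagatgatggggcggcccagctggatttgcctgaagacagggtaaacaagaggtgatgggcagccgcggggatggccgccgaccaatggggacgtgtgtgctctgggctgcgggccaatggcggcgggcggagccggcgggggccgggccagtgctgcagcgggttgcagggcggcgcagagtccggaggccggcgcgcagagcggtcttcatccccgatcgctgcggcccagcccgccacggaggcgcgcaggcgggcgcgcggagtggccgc
The motif CCGGAA was found in the Spry2 window alone among the 6. Of all 32851 mouse windows of this length, 14.9% hold it on either strand. ETS sites of other sequence were not searched for, so the windows without CCGGAA may hold some. The AP-1 motif TGACTCA (5.20% of all windows), the CRE motif TGACGTCA (1.79%) and the CArG box (1.63%) were not found in these 6 windows, also searched on both strands.

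In tumors, 5 of the 10 members were higher in all 3 midostaurin samples than in all 3 controls. These were the feedback inhibitors Spry2, Spry4 and Spred1, the nuclear phosphatase Dusp4 and Phlda1. None passed the adjusted threshold in edgeR, which called 0.0435% of 16094 genes tested. By DESeq2, 4 of the 10 were called, all of them higher (Spry2, Spry4, Dusp4 and Phlda1), where that tool called 6.30% of 13873 genes higher. At an unadjusted p below 0.05 in edgeR, 5 of 10 members were higher, against 10.5% of all genes, and 0 were lower, against 9.43%. All samples lay above the other group in 5 members (13.2% of all genes) and below it in 0 (14.0%). The median log2 fold change was 0.09 over the members and -0.01 over all genes tested. Because the members were chosen with earlier results of these data known, these shares are no independent test of them.

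**Figure D1:**
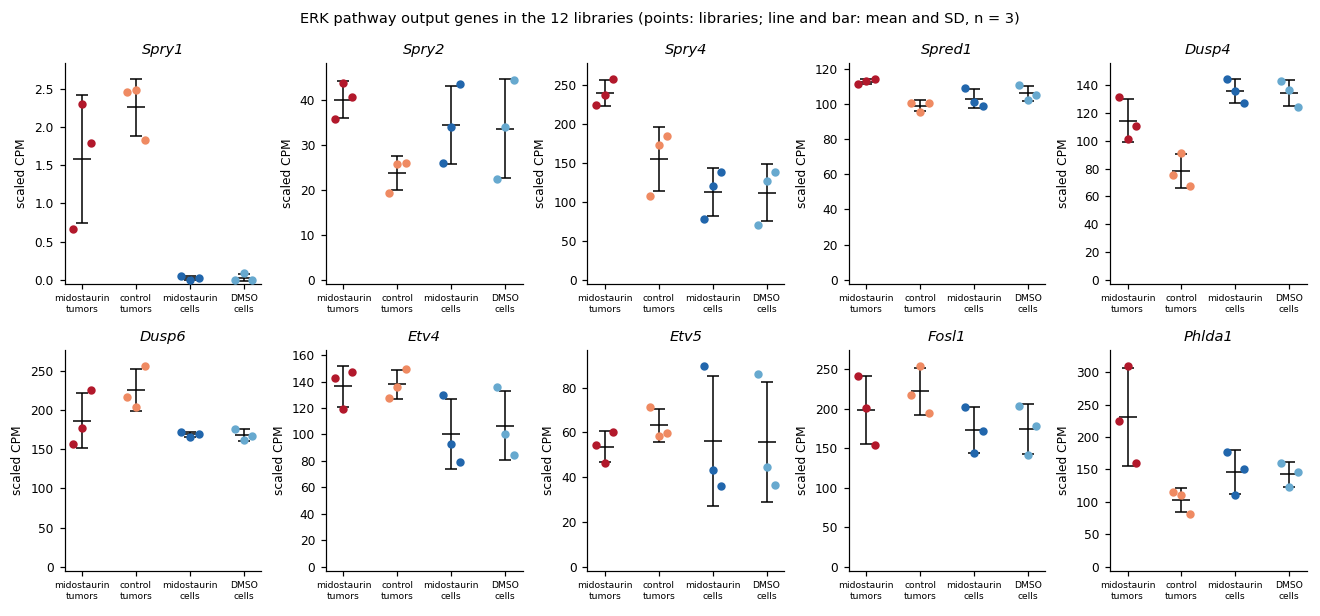
Scaled CPM (vertical axes, from 0) of the 10 ERK pathway output genes in midostaurin tumors, control tumors, midostaurin cells and DMSO cells. Points are libraries in number order, and the line and bar give mean and SD (n = 3). Spry2, Spry4, Spred1, Dusp4 and Phlda1 separate the tumor groups, while the cell groups overlap in every panel.

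Spry2, an inhibitor of receptor signalling to RAS, measured 35.7, 43.7 and 40.7 CPM in midostaurin tumors 2, 3 and 4, against 19.2, 25.7 and 26.0 CPM in control tumors 1, 2 and 3. The groups did not overlap, and the lowest treated tumor stood above the highest control. The log2 fold change was 0.76 ± 0.15 (SE, edgeR), with an adjusted p of 0.085 and of 0.000225 by DESeq2. Spry4, its paralog, measured 225.0, 237.1 and 257.9 CPM in the midostaurin tumors, against 108.0, 172.9 and 184.9 CPM in the control tumors. Control tumor 1 was the lowest of the 6 libraries for Spry4, as it was for Spry2. The log2 fold change of Spry4 was 0.63 ± 0.20 (SE), with an edgeR adjusted p of 0.162 and a DESeq2 adjusted p of 0.0217.

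Spred1, a Sprouty-related inhibitor that brings neurofibromin to RAS, had the tightest values of the 10. It measured 111.2, 113.0 and 114.1 CPM in midostaurin tumors, against 100.8, 95.7 and 100.9 CPM in control tumors. The groups did not overlap, though the log2 fold change was 0.19 ± 0.07 (SE), with adjusted p of 0.187 by edgeR and 0.0701 by DESeq2. Spry1 was low in every tumor, with 26, 74 and 84 counts in midostaurin tumors 2, 3 and 4 and 97, 92 and 79 counts in control tumors 1, 2 and 3. Midostaurin tumor 2 stood below the other 5, which overlapped. Its log2 fold change was -0.51 ± 0.44 (SE), with an edgeR adjusted p of 0.565.

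The fold changes of the phosphatases had opposite signs. Dusp4 measured 131.5, 101.7 and 110.7 CPM in midostaurin tumors, against 75.3, 91.6 and 67.3 CPM in control tumors, without overlap. Its log2 fold change was 0.56 ± 0.15 (SE), with adjusted p of 0.121 by edgeR and 0.0118 by DESeq2. Dusp6, the cytoplasmic ERK phosphatase, measured 156.9, 176.8 and 225.5 CPM in midostaurin tumors, against 216.2, 204.4 and 256.1 CPM in control tumors. Midostaurin tumor 4 lay among the controls, and the log2 fold change of -0.27 ± 0.15 (SE) had an edgeR adjusted p of 0.376. No test compared the responses of these genes with each other.

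The PEA3 factors overlapped between the tumor groups. Etv4 measured 142.6, 118.9 and 147.4 CPM in midostaurin tumors, against 127.9, 136.1 and 149.8 CPM in control tumors, with a log2 fold change of -0.01 ± 0.11 (SE, edgeR adjusted p = 0.969). Etv5 measured 54.5, 46.3 and 60.0 CPM in midostaurin tumors, against 71.6, 58.3 and 59.7 CPM in control tumors. Its log2 fold change was -0.23 ± 0.13 (SE, edgeR adjusted p = 0.357).

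Phlda1 had the largest difference of the 10 in tumors. It measured 224.1, 309.0 and 159.2 CPM in midostaurin tumors, against 115.2, 111.2 and 81.8 CPM in control tumors. The treated tumors spread widely, with tumor 3 the highest, yet the lowest of them exceeded every control. The log2 fold change was 1.17 ± 0.25 (SE), a 2.25-fold difference, with adjusted p of 0.0939 by edgeR and 8.03e-05 by DESeq2. Fosl1 measured 240.6, 200.4 and 153.8 CPM in midostaurin tumors, against 217.2, 253.6 and 194.4 CPM in control tumors. Those groups overlapped, with a log2 fold change of -0.15 ± 0.18 (SE, edgeR adjusted p = 0.672).

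Leaving out any 1 of the 6 tumors kept the count of edgeR calls among the members at 0. Those fits called 0 to 1 gene in all, so they could hardly show a change. In bulk samples, fewer cells of a type and less RNA per cell cannot be told apart. Other cell types' markers also moved with the groups. The summed level of 7 macrophage markers lay between 503 and 1170 CPM in midostaurin tumors and between 1190 and 2190 CPM in control tumors, with none at 0. Of these 7 genes, 4 lay lower in all midostaurin tumors (14.0% of all genes did), and the median log2 fold change was -0.84. The summed level of 10 colon epithelium markers, mostly Krt20, lay between 433 and 693 CPM with midostaurin, where Cdx1 was at 0. It lay between 185 and 398 CPM in controls, where Cdx1 and Cldn7 were at 0. Of its 6 tested genes 2 had a log2 fold change above 0 and the median was -0.82. Cdx2, an intestinal transcription factor, was at 0.47 ± 0.14 CPM with midostaurin and 1.40 ± 0.60 CPM in controls (SD, n = 3 each). Cdh1 and Krt8 spread widely in controls, at 0.56 to 9.20 CPM and 0.22 to 3.91 CPM. With midostaurin Cdh1 was at 0.53 to 1.42 CPM and Krt8 at 0.20 to 0.76 CPM, so both overlapped between the groups. The sum of 5 neutrophil markers reached 658 CPM in midostaurin tumor 3 and stayed between 12.9 and 28.6 CPM in the other 5 tumors. The sum of 4 keratinocyte markers reached 726 CPM in control tumor 2 and was at most 1.59 CPM in the other 5. The part of these cells in the members' differences was not tested.

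Other marker sums overlapped between the tumor groups. The 6 fibroblast markers summed to 1570 to 2650 CPM with midostaurin and to 1720 to 4470 CPM in controls. Cultured CT26 cells also held them, at 824 to 1560 CPM with midostaurin and 826 to 1540 CPM with DMSO. This sum therefore does not read host fibroblasts alone. Of the 6, 1 lay higher in all midostaurin tumors (13.2% of all genes did), Dcn, and the median log2 fold change was -0.06. The 6 endothelial markers summed to 53.5 to 97.0 CPM with midostaurin and to 57.9 to 116 CPM in controls. The 5 T-cell markers summed to 12.6 to 28.0 CPM with midostaurin and to 15.7 to 25.5 CPM in controls. The 4 pericyte markers summed to 58.9 to 80.2 CPM with midostaurin and to 60.2 to 85.4 CPM in controls. Yet 2 of the 4 lay lower in all midostaurin tumors (14.0% of all genes did), each at an unadjusted p below 0.05 in edgeR. Their list's median log2 fold change was -0.60. The 4 muscle markers summed to 0.178 to 35.6 CPM with midostaurin and to 1.24 to 25.3 CPM in controls. None of the markers in these 5 lists was at 0 in a whole tumor group.

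In cultured cells the members showed no difference with midostaurin that exceeded the spread between libraries. Of the 10, 9 had enough counts to be tested, and Spry1, with 3 summed counts in midostaurin cells and 3 in DMSO cells, did not. edgeR called 0 of the 9, as it called 0% of 14538 genes, and 0 of the 9 had an unadjusted p below 0.05, against 0.516% of all genes. DESeq2 called 0 of the 9 and 2 genes in all. No member's groups lay apart, against 2.46% of all genes tested. The log2 fold changes ran between -0.09 ± 0.25 (SE) for Etv4 and 0.04 ± 0.30 (SE) for Spry2, each with an edgeR adjusted p of 1.0.

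**Figure D2:**
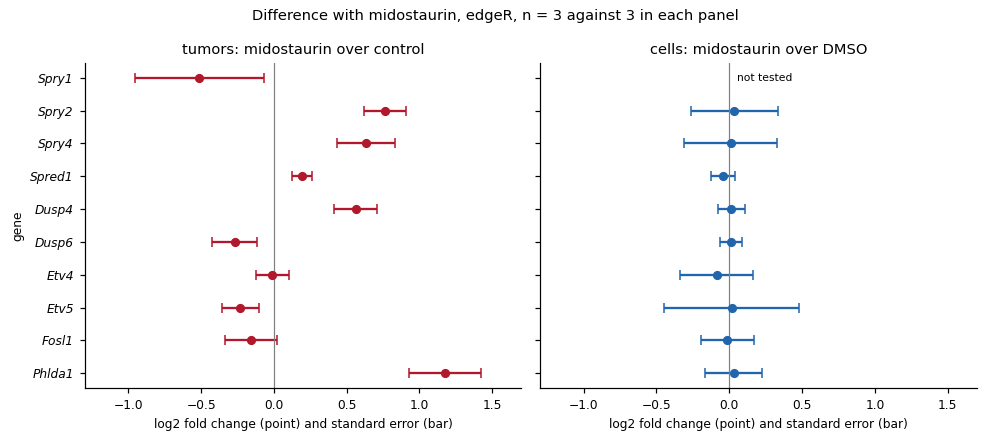
Log2 fold change with midostaurin (horizontal axis; point, with SE as bar, edgeR, n = 3 against 3) of the 10 genes in tumors (left panel) and in cells (right panel). The tumor values run between -0.51 for Spry1 and 1.17 for Phlda1, while the 9 values in cells lie between -0.09 and 0.04.

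The spread within the cell groups followed the replicate numbers, and libraries of the same number were close. Spry4 measured 78.2, 120.5 and 138.5 CPM in midostaurin cells 1, 2 and 3, against 70.2, 126.7 and 138.2 CPM in DMSO cells 1, 2 and 3. Etv5 measured 89.6, 43.1 and 36.2 CPM in midostaurin cells, against 86.1, 44.5 and 36.4 CPM in DMSO cells. The libraries numbered 1 were the lowest for Spry4 and the highest for Etv5 in both treatments. Over the 9 tested members, same-numbered libraries differed by at most 0.21 on the log2(CPM + 0.5) scale, while the range over all 6 cell libraries was 0.12 to 1.30.

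The libraries numbered 1 lay outside those numbered 2 and 3 in all 9 tested members, as they did in 65.1% of all genes tested in cells, a background against which the members' share is to be read. Spry2 measured 25.9 CPM in midostaurin cell 1 and 22.3 CPM in DMSO cell 1, and between 33.9 and 44.4 CPM in the other 4. The mean difference of the libraries numbered 1 from the other 4 was -0.68 for Spry2 and -0.82 for Spry4 on the log2 scale. It was 1.12 for Etv5, 0.58 for Etv4, 0.35 for Fosl1 and 0.35 for Phlda1. Etv4, for instance, measured 130.0 CPM in midostaurin cell 1 and 135.7 CPM in DMSO cell 1, and 79.0 to 100.2 CPM in the rest. For Dusp4 (0.13), Spred1 (0.11) and Dusp6 (0.07) the differences were small. The inhibitors Spry2 and Spry4 therefore lay on the opposite side from the ETS factors and all other tested members, the inhibitor Spred1 among them. This split was seen in the data and carries no test.

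**Figure D3:**
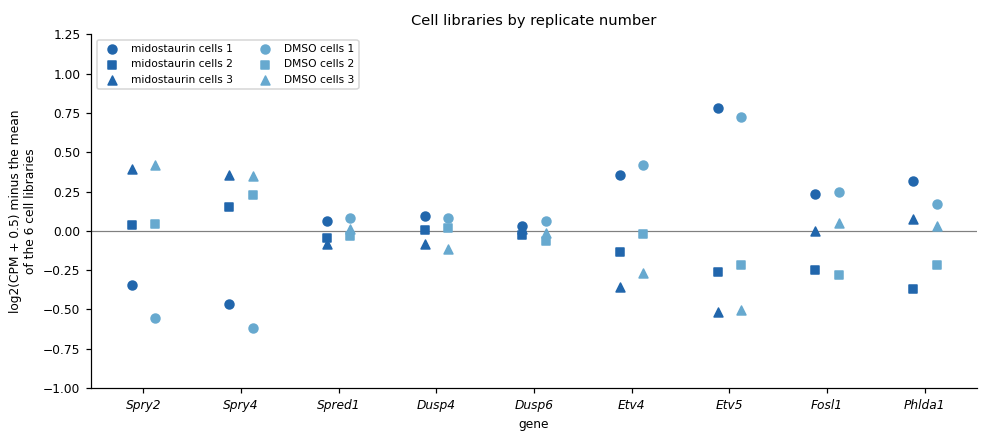
Log2(CPM + 0.5) of each cell library minus the mean of the 6 (vertical axis) for the 9 tested members; symbols give the replicate number and shades the treatment (midostaurin left of DMSO). The circles, libraries numbered 1, lie below the others in Spry2 and Spry4 and above them in the other 7 genes.

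With the replicate number as a block, which the paired values allow in cells, edgeR called 8 genes in all in place of 0, and still 0 of the 9 members, with adjusted p of 0.992 to 0.998. Of the 9, Etv4 alone had an unadjusted p below 0.05 in that fit, where 1.93% of genes were lower at that level, with a log2 fold change of -0.09 (edgeR adjusted p = 0.992). It was lower in all 3 same-numbered pairs, by 0.06, 0.11 and 0.09 on the log2(CPM + 0.5) scale.

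The responses in tumors and cells were compared in a single fit over all 12 libraries. edgeR called 0 of 10 members for the difference, where it called 0.00589% of 16965 genes, and DESeq2 also called 0. At an unadjusted p below 0.05, 3 of 10 members had a higher response in tumors, against 3.47% of all genes. The difference in log2 fold change was 1.14 ± 0.35 for Phlda1 (SE, edgeR adjusted p = 0.626), 0.54 ± 0.18 for Dusp4 (adjusted p = 0.695) and 0.23 ± 0.10 for Spred1 (adjusted p = 0.797). For Spry2 it was 0.72 ± 0.35 (SE, edgeR adjusted p = 0.832) and for Spry4 0.62 ± 0.40 (SE, adjusted p = 0.89). With the replicate block in the cells alone, 16 genes were called in place of 1 and 0 members. The adjusted p in that edgeR fit was 0.144 for Spry2, 0.159 for Phlda1, 0.195 for Spred1, 0.205 for Dusp4 and 0.297 for Spry4.

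Tumors and cultured cells differed in the level of some members even without the drug. This comparison sets a tumor with host cells beside a pure culture, and experiment, table and growth in the mouse cannot be told apart in it. edgeR called 3 of 10 members, against 44.2% of 16965 genes. Higher in control tumors were 2 (24.5% of genes were called higher), Spry1 and Dusp6, and lower was 1 (19.7% were called lower), Dusp4. All control tumors lay above all DMSO cells in 2 members (30.0% of genes), Spry1 and Dusp6, and below them in 3 (24.8%), Dusp4, Spred1 and Phlda1.

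Spry1, an inhibitor of receptor signalling like Spry2, had few counts outside the tumors. It had 97, 92 and 79 counts in control tumors 1, 2 and 3, against 0, 3 and 0 counts in DMSO cells 1, 2 and 3. The ratio of the summed counts, 268 against 3, was 83.2 after scaling for depth, with an exact 95% interval of 28.2 to 406.0 that covers counting error only. All 3 counts came from DMSO cell 2. Without that library, left out because it held them, the other 2 DMSO libraries had 0 counts. Setting their sum to a chosen floor of 3 counts gave a ratio of 55.7. That value is no lower limit, as the interval with all libraries reaches down to 28.2. The edgeR log2 fold change was 6.225 (adjusted p = 0.000432) with all libraries and 9.446 (adjusted p = 0.000778) without DMSO cell 2. It ran from 5.659 to 9.446 with 1 library left out, so its size depends on these few counts. In midostaurin tumors the sum was 184, against 3 in midostaurin cells, a ratio of 57.7 (19.4 to 282.0). The sum of the 6 endothelial markers was 57.9 to 116 CPM in control tumors and 0.531 to 2.05 CPM in DMSO cells. Macrophage markers summed to 1190 to 2190 CPM in control tumors and to 5.41 to 25.9 CPM in DMSO cells, where Adgre1, C1qa and C1qb were at 0. Which cells of the tumor held Spry1 was not tested.

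Dusp6 measured 216.2, 204.4 and 256.1 CPM in control tumors, against 175.9, 161.4 and 166.8 CPM in DMSO cells, and rose by 0.43 ± 0.13 on the log2 scale (SE, edgeR adjusted p = 0.0215). This call was lost without DMSO cell 2 (adjusted p = 0.0724), DMSO cell 3 (0.0611) or control tumor 3 (0.0841). Dusp4 measured 75.3, 91.6 and 67.3 CPM in control tumors, against 143.0, 136.7 and 124.5 CPM in DMSO cells, and fell by 0.79 ± 0.13 on the log2 scale (SE, edgeR adjusted p = 0.000826). The phosphatases thus changed in opposite directions between these groups. Spred1 (100.8, 95.7 and 100.9 CPM in control tumors, against 110.7, 102.3 and 105.2 CPM in DMSO cells) and Phlda1 (115.2, 111.2 and 81.8 CPM in control tumors, against 160.3, 122.3 and 145.6 CPM in DMSO cells) lay lower without overlap. Neither was called, with edgeR adjusted p of 0.275 for Spred1 and 0.145 for Phlda1.

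The split among the cell libraries bears on this comparison. Without both cell libraries numbered 1, edgeR called 6 of the 10 members, against 53.3% of 17460 genes. Spry2 was then called lower, with a log2 fold change of -0.72 (edgeR adjusted p = 0.00734), and Etv4 (0.59, adjusted p = 0.00519) and Etv5 (0.65, adjusted p = 0.00632) were called higher in control tumors. With all libraries the log2 fold change was -0.50 for Spry2, 0.37 for Etv4 and 0.18 for Etv5. Without DMSO cell 1 alone, 5 members were called, against 45.6% of 17558 genes, now with Spry2 (edgeR adjusted p = 0.0217) and Etv4 (0.035).

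**Figure D4:**
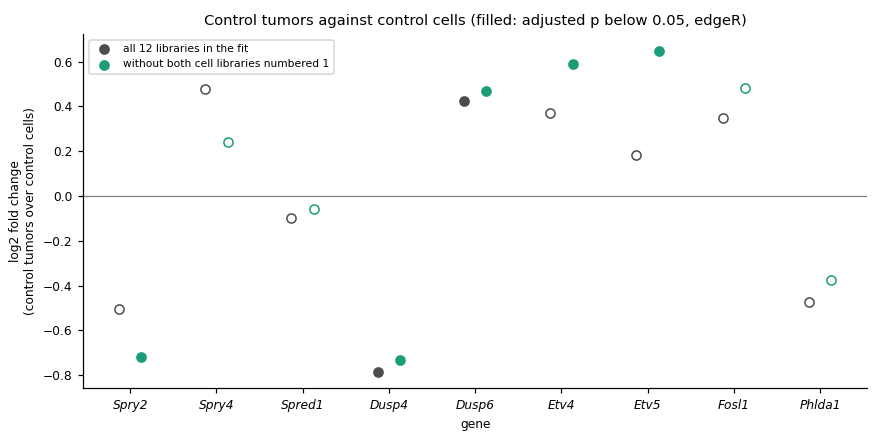
Log2 fold change of control tumors over control (DMSO) cells for 9 members (vertical axis) with all 12 libraries and without both cell libraries numbered 1; filled points have an edgeR adjusted p below 0.05. Dusp4 and Dusp6 are filled in both fits, and Spry2, Etv4 and Etv5 are filled only in the fit without those libraries. Spry1 is left off for its scale.

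Levels were set against each other per kilobase of summed exon length. In midostaurin tumors Phlda1 stood highest, at 104.6 ± 34.1 CPM per kb, followed by Fosl1 at 97.6 ± 21.4 CPM per kb (SD, n = 3), and their values overlapped. In control tumors Fosl1 stood highest, at 109.1 ± 14.7 CPM per kb, above Dusp6 at 72.0 ± 8.65 CPM per kb without overlap (SD, n = 3). Phlda1 came after Dusp6 there, at 46.6 ± 8.27 CPM per kb, and overlapped with Etv4 at 44.4 ± 3.56 CPM per kb. Spry4 followed in control tumors at 32.7 ± 8.70 CPM per kb and overlapped with Dusp4 at 28.5 ± 4.52 CPM per kb. Below these lay Etv5 (15.4 ± 1.78 CPM per kb), Spred1 (14.6 ± 0.44 CPM per kb) and Spry2 (11.3 ± 1.83 CPM per kb). Spry1 came last in all 4 groups, at 0.54 ± 0.29 CPM per kb in midostaurin tumors and 0.78 ± 0.13 CPM per kb in control tumors.

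In midostaurin tumors the order below Fosl1 was Dusp6, Spry4, Etv4 and Dusp4, each overlapping with the next. Then came Spry2 at 19.2 ± 1.94 CPM per kb, which stood above Spred1 (16.6 ± 0.22 CPM per kb) and Etv5 (13.1 ± 1.69 CPM per kb) without overlap. In both cell groups the order was Fosl1, Phlda1, Dusp6, Dusp4, Etv4, Spry4, Spry2, Spred1, Etv5 and Spry1. There Fosl1 averaged 84.9 ± 14.3 CPM per kb with midostaurin and 85.7 ± 15.4 CPM per kb with DMSO (SD, n = 3 each). Apart from the steps from Dusp4 to Etv4 and from Etv5 to Spry1, neighbours in DMSO cells overlapped. In midostaurin cells the step from Dusp6 to Dusp4 also had no overlap.

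The wider pathway in tumors was read from lists of genes that act around the members. Like the members, these lists were chosen with earlier results of these data known. Among 15 tested ligands of receptors that feed the cascade, 4 were higher (10.5% of all genes) and 0 lower (9.43%) at an unadjusted p below 0.05 in edgeR. Their median was 0.41 on the log2 scale. None was called by edgeR in this or the next 4 lists. Btc, which encodes the EGF receptor ligand betacellulin, measured 85.5, 83.6 and 127.3 CPM in midostaurin tumors, against 11.7, 17.0 and 46.8 CPM in control tumors. All 3 treated tumors exceeded the controls, with a log2 fold change of 1.97 ± 0.51 (SE) and adjusted p of 0.119 by edgeR and 0.0208 by DESeq2. Fgf10, a ligand of FGF receptors, averaged 52.1 ± 10.9 CPM with midostaurin and 24.8 ± 5.03 CPM in controls (SD, n = 3 each; edgeR adjusted p = 0.0874, DESeq2 adjusted p = 8.03e-05). Ereg, which encodes epiregulin, another EGF receptor ligand, had a log2 fold change of 0.90 (edgeR adjusted p = 0.177), with overlap.

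The 12 tested receptors had a median of 0.05 on the log2 scale. At an unadjusted p below 0.05 in edgeR, 2 were higher (10.5% of all genes) and 0 lower (9.43%). They were Met, the receptor of hepatocyte growth factor, at 98.7 ± 1.24 CPM with midostaurin and 76.6 ± 2.89 CPM in controls (SD, n = 3 each; edgeR adjusted p = 0.0841, DESeq2 adjusted p = 0.000246), and Axl, the GAS6 receptor. Axl averaged 1480 ± 48.8 CPM with midostaurin and 1216 ± 73.1 CPM in controls (edgeR adjusted p = 0.154). Both separated the groups. Fgfr3, an FGF receptor, was under 4 CPM in every tumor and overlapped.

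Among 21 tested genes of the cascade itself, 5 were higher (10.5% of all genes) and 2 lower (9.43%) at an unadjusted p below 0.05 in edgeR. Their median log2 fold change was 0.06. The fold changes of the ERK-activated kinases RSK2 and RSK1 had opposite signs. Rps6ka3, which encodes RSK2, had a log2 fold change of 0.28 ± 0.07 (SE, edgeR adjusted p = 0.121) and Rps6ka1, which encodes RSK1, of -0.65 ± 0.18 (SE, edgeR adjusted p = 0.125), each without overlap.

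Among 15 tested negative regulators outside the members, 5 were higher (10.5% of all genes) and 1 lower (9.43%) at an unadjusted p below 0.05 in edgeR. Their median log2 fold change was 0.25. Errfi1, which encodes the EGF receptor inhibitor MIG6, measured 430.3, 841.1 and 483.0 CPM in midostaurin tumors, against 224.9, 307.8 and 319.9 CPM in control tumors. The log2 fold change was 1.04 ± 0.27 (SE), with adjusted p of 0.12 by edgeR and 0.00116 by DESeq2. Nf1, which encodes neurofibromin, a protein that switches RAS off, averaged 65.2 ± 1.46 CPM with midostaurin and 56.8 ± 3.05 CPM in controls (SD, n = 3 each; edgeR adjusted p = 0.201). Dusp9, a further ERK phosphatase, lay lower without overlap, at 15.5 ± 1.96 CPM with midostaurin and 25.5 ± 4.91 CPM in controls (SD, n = 3 each; edgeR adjusted p = 0.108).

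Among 24 other tested outputs, 7 were higher (10.5% of all genes) and 2 lower (9.43%) at an unadjusted p below 0.05 in edgeR. Their median log2 fold change was 0.19. Those named by the smallest p were early growth response factors, transcription factors made within minutes of ERK activation. Egr3 measured 24.3, 15.8 and 21.0 CPM in midostaurin tumors, against 4.87, 8.37 and 6.38 CPM in control tumors. Its log2 fold change was 1.65 ± 0.25 (SE), with adjusted p of 0.0841 by edgeR and 1.4e-07 by DESeq2. Egr2 had a log2 fold change of 1.39 ± 0.34 (SE, edgeR adjusted p = 0.115). Egr1 averaged 541 ± 76.8 CPM with midostaurin and 337.4 ± 69.8 CPM in controls (SD, n = 3 each; edgeR adjusted p = 0.117, DESeq2 adjusted p = 0.00254). All 3 separated the groups. Fos (-1.01) and Fosb (-1.21), subunits of AP-1 and the 2 lower outputs, overlapped between the groups, and were picked for mention once their values were known.

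**Figure D5:**
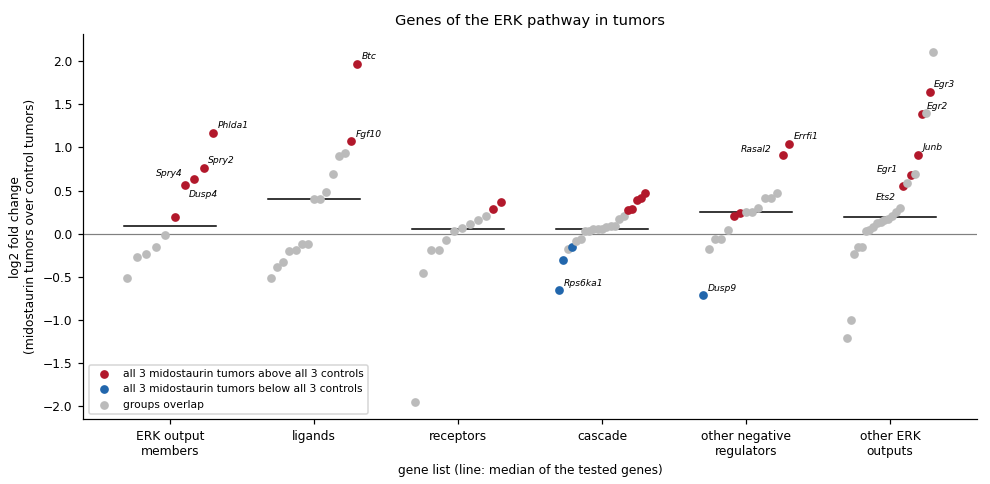
Log2 fold change of midostaurin tumors over control tumors (vertical axis) for the tested genes of 6 lists, in rising order within a list; the line is the list's median. Red points have all 3 midostaurin tumors above all 3 controls, blue points all 3 below. Medians run between 0.05 for receptors and 0.41 for ligands, and no list's genes passed edgeR's adjusted threshold.

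Of 6 proliferation genes, 0 were higher (10.5% of all genes) and 2 lower (9.43%) in midostaurin tumors at an unadjusted p below 0.05 in edgeR. Their median log2 fold change was -0.20. Their summed level was 894 to 975 CPM with midostaurin and 996 to 1110 CPM in controls. Birc5, which encodes survivin, averaged 71.0 ± 6.59 CPM with midostaurin and 93.8 ± 9.99 CPM in controls, with an edgeR adjusted p of 0.129. Top2a, a topoisomerase, averaged 280.3 ± 16.6 CPM with midostaurin and 336.9 ± 35.5 CPM in controls (SD, n = 3 each; edgeR adjusted p = 0.229). Plk1, a mitotic kinase, had a log2 fold change of -0.25 (edgeR adjusted p = 0.341). Mki67, the proliferation marker Ki-67, measured 276.4 ± 3.52 CPM with midostaurin and 271.9 ± 9.66 CPM in controls (edgeR adjusted p = 0.854).

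In cells none of the genes in these pathway lists was called by edgeR with midostaurin, as was 0% of all genes. None had an unadjusted p below 0.05, against 0.516% of all genes. The numbers tested there were 13 ligands, 10 receptors, 20 cascade genes, 15 negative regulators, 23 other outputs and 6 proliferation genes. Their list medians lay between -0.04 for the ligands and 0.02 for the receptors.

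Between control tumors and DMSO cells the same lists held calls in both directions. Of 16 tested ligands, edgeR called 5 higher (24.5% of all genes) and 3 lower (19.7%). Btc averaged 25.1 ± 18.9 CPM in control tumors and 3.02 ± 1.02 CPM in DMSO cells (SD, n = 3 each; edgeR adjusted p = 0.00125). Pdgfa, a platelet-derived growth factor chain, rose by 1.00 ± 0.18 on the log2 scale (SE, edgeR adjusted p = 0.00138). Its partner chain Pdgfb averaged 12.2 ± 0.68 CPM in control tumors and was at 0 in 2 of 3 DMSO cell libraries. Of 12 receptors, 4 were called higher (24.5% of all genes) and 1 lower (19.7%). Igf1r, the IGF1 receptor, averaged 130.3 ± 10.6 CPM in control tumors and 95.3 ± 5.80 CPM in DMSO cells, with an edgeR adjusted p of 0.0016. Insr, the insulin receptor, averaged 32.2 ± 2.40 CPM in control tumors and 47.2 ± 1.61 CPM in DMSO cells (SD, n = 3 each; edgeR adjusted p = 0.00337). Fgfr3 was called higher and was at 0 in all 3 DMSO cell libraries.

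Of 21 cascade genes, 6 were called higher (24.5% of all genes) and 6 lower (19.7%) in control tumors. Sos1, which encodes an exchange factor that loads RAS with GTP, fell by 0.76 ± 0.09 on the log2 scale (SE, edgeR adjusted p = 9.26e-05). Sos2, its paralog, fell by 0.82 ± 0.12 (SE, edgeR adjusted p = 0.000439). Braf, a RAF kinase, fell by 0.74 ± 0.12 (SE, edgeR adjusted p = 0.000597). Of 15 negative regulators, 3 were called higher (24.5% of all genes) and 5 lower (19.7%). Dusp7, a cytoplasmic ERK phosphatase like Dusp6, averaged 64.8 ± 5.12 CPM in control tumors and 36.2 ± 3.06 CPM in DMSO cells (SD, n = 3 each; edgeR adjusted p = 0.000106). Nf1 fell by 0.76 ± 0.16 on the log2 scale (SE, edgeR adjusted p = 0.00321). Rasa2, which also inactivates RAS, had a log2 fold change of -1.10 ± 0.22 (SE, edgeR adjusted p = 0.00223).

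Of 24 other outputs, edgeR called 10 higher (24.5% of all genes) and 1 lower (19.7%) in control tumors. Their median log2 fold change was 0.37, against 0.04 over all genes. Fos measured 78.8, 42.3 and 91.8 CPM in control tumors, against 1.06, 2.31 and 2.96 CPM in DMSO cells (edgeR adjusted p = 0.000285). Jun, its AP-1 partner, averaged 273.5 ± 39.3 CPM in control tumors and 97.5 ± 7.06 CPM in DMSO cells (SD, n = 3 each; edgeR adjusted p = 5.12e-05). Ets2, an ETS factor, was the lower call, at 48.0 ± 1.96 CPM in control tumors and 166.4 ± 23.5 CPM in DMSO cells (SD, n = 3 each; edgeR adjusted p = 0.000211). None of the 6 proliferation genes was called, and Mki67 averaged 271.9 ± 9.66 CPM in control tumors and 205.7 ± 60.6 CPM in DMSO cells (SD, n = 3 each; edgeR adjusted p = 0.162). Ccnb1, a mitotic cyclin, averaged 124.4 ± 14.7 CPM in control tumors and 173.0 ± 41.1 CPM in DMSO cells (edgeR adjusted p = 0.0797). Plk1 averaged 88.0 ± 14.2 CPM in control tumors and 120.0 ± 26.0 CPM in DMSO cells (edgeR adjusted p = 0.0896). At an unadjusted p below 0.05, edgeR had 2 of the 6 lower, Ccnb1 and Plk1, as it had 4002 of 16965 genes. By DESeq2 the adjusted p was 0.0674 for Ccnb1 and 0.0856 for Plk1.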

How the data were processed

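The authors deposited whole-number counts per gene, 1 table for tumors and 1 for cells, each with 55335 Ensembl identifiers. Libraries were directional and poly(A)-selected (NEBNext kit, TRIzol RNA), per the labels' protocols. Per the submitters' processing notes, FastQC 0.11.2, Bowtie2 2.3.4, RSEM and mm10 were used; the RSEM version, annotation and strand setting are not given in the sources used here. RSEM shares reads among similar genes by an estimate, so these whole numbers may be rounded estimates.

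Symbols and positions came from GENCODE vM21 (55154 identifiers, 99.7%). Counts were tested with edgeR 4.0.16 in R 4.3.3 (TMM scaling, filterByExpr, quasi-likelihood test, Benjamini-Hochberg adjustment over all genes, threshold 0.05), tumors and cells apart for the drug and all 12 libraries together for other contrasts. DESeq2 1.42.0, limma-voom (limma 3.58.1), other scalings, no low-count filter, a replicate block and left-out libraries were alternatives. The code was tested on simulated data. The members and lists were chosen with earlier results of these data known. Besides the members and Mki67, each list's up to 3 genes of smallest p in both tumor contrasts were named, and 3 genes per experiment by likeness; some genes this rule names are not reported here.

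In cells, the deviations of same-numbered libraries from their group means correlated at 0.89, 0.69 and 0.68. Between numbers 2 and 3 the values were 0.52 and 0.51, and between number 1 and the others -0.74 to -0.73. The numbers were therefore taken to pair the cell libraries, though 2 and 3 are less clearly told apart. In tumors the shared numbers 2 and 3 gave 0.15 and -0.19, so the numbers do not pair the tumors.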

Additional observations from a re-analysis of the deposited data

How the results depend on the processing

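Low counts kept Spry1 out of the test in cells, and 3 libraries a group limit the precision of every value. In tumors, 7 genes were called by edgeR, against 1447 by DESeq2, 16 by limma-voom, 0 without the low-count filter, 0 with the replicate block and 0 to 1 with a library left out; members called were 0, but 4 by DESeq2. In cells, 0 genes were called, against 2 by DESeq2, 2 by limma-voom, 1 in the 12-library fit, 1 with total count scaling, 1 without both libraries numbered 1 and 8 with the replicate block. The block changed no member's call in cells or the difference. In tumors it could not show that calls hold. Numbers 1 and 4 each occur in a single tumor group, so that contrast rests on the tumors numbered 2 and 3. For the difference, 1 gene was called, against 99 by DESeq2, 16 with the replicate block in cells alone, 0 without both libraries numbered 1 and 1 to 6 with a library left out. Between control tumors and DMSO cells, 3 members were called, 6 without both libraries numbered 1 and 2 to 5 with a library left out. The causes of these shifts were not tested.

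Some log2 fold changes that had not been called changed sign. In cells without both libraries numbered 1, Spry2 had -0.020, Spry4 -0.032, Etv5 -0.029 and Phlda1 -0.044, and limma-voom gave Etv5 -0.0016. The difference for Spry1 was 0.88 without both. With 1 library left out, values in cells ran from -0.19 to 0.29 (Spry2), -0.24 to 0.21 (Spry4), -0.32 to 0.13 (Etv4), -0.49 to 0.48 (Etv5), -0.14 to 0.11 (Fosl1), -0.14 to 0.20 (Phlda1), -0.017 to 0.046 (Dusp6) and -0.038 to 0.058 (Dusp4). In tumors they ran from -0.067 to 0.089 (Etv4) and -0.33 to 0.0022 (Fosl1), and for Etv5 between control tumors and DMSO cells from -0.047 to 0.64. For the difference they ran from -3.73 to 0.31 (Spry1), -0.14 to 0.30 (Etv4), -0.72 to 0.25 (Etv5) and -0.31 to 0.0042 (Fosl1).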

Other observations

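Ratios between pairs of members, chosen after their values were seen and given without a test, did not overlap between the tumor groups for 3 of 5 pairs. Spry4 over Etv5, in CPM, was 4.13 to 5.12 in midostaurin tumors and 1.51 to 3.10 in control tumors. Phlda1 over Fosl1 was 0.931 to 1.54 in midostaurin tumors and 0.421 to 0.53 in control tumors. Dusp4 over Dusp6 was 0.491 to 0.838 in midostaurin tumors and 0.263 to 0.448 in control tumors. Spry4 over Spry2 overlapped, at 5.42 to 6.34 in midostaurin tumors and 5.61 to 7.11 in control tumors, and so did Etv4 over Etv5, at 2.46 to 2.62 in midostaurin tumors and 1.79 to 2.51 in control tumors. Spry4 over Spry2 was lower in culture, at 3.02 to 3.56 in midostaurin cells and 3.12 to 3.73 in DMSO cells.

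The genes whose log2(CPM + 0.5) followed the mean of the 10 members most closely over the 6 tumors were Src (Pearson r = 1.0 after rounding), a tyrosine kinase, Zcchc9 (0.993) and Sox9 (0.992), a transcription factor of intestinal crypts, out of 11031 genes. Over the 6 cell libraries they were Anapc16 (0.997), Kansl3 (0.991) and Lancl1 (0.988), out of 10413 genes. These are descriptions over 6 libraries that share treatment groups and, in cells, replicate numbers. The members' mean on that log2 scale was 6.30 to 6.42 in midostaurin tumors and 6.11 to 6.23 in control tumors, and 5.81 to 6.02 in midostaurin cells and 5.87 to 5.96 in DMSO cells.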
